A study of Mus musculus with 18 samples.

Results

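Gene expression was compared in naive dura mater, the outer membrane around the brain, between mast cell-engrafted mice and wild-type mice that had not undergone stroke. The arrays were chosen by their titles: 3 engrafted naive and 3 wild-type naive arrays of 18 in the series, with 21640 annotated probe sets tested out of 34760. Wild-type mice were WBB6F1-Kit+/+ and received no cells. Engrafted mice were WBB6F1-KitW/W-v, a strain that carries the W and W-v mutations of Kit and lacks mast cells, and had been given mast cells intravenously 8 to 10 weeks earlier. All were male, matched to an age at surgery of 17 to 21 weeks, and perfused with saline before the dura was taken, and each dura was hybridised to its own array. Both groups therefore held mast cells but differed in Kit genotype and in the transfer, and these cannot be told apart from the pair alone. The naive deficient mice (WBB6F1-KitW/W-v, no transfer, 3 arrays) share the genotype without the transfer, and 3 engrafted and 3 wild-type arrays from 2 days after a 30-minute closure of the middle cerebral artery repeat the contrast in other mice.

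Kit is the receptor for stem cell factor, and mast cells, melanocytes, germ cells and early blood cells depend on it. Hosts with the W and W-v alleles keep the mutant receptor in all their own cells after transfer, are anaemic and lack skin melanocytes, so that an engrafted mouse is still a Kit mutant outside the transferred cells. Mast cells of the dura are of the connective tissue type and store chymases, tryptases, carboxypeptidase A3, histamine and heparin in granules.

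Values are log2 levels per probe set, and a difference of 1 is a factor of 2. Array medians over the tested probe sets lay between 8.5 and 8.57 in the 6 arrays, lower quartiles of all 18 arrays between 6.72 and 6.93, and correlations within groups between 0.984 and 0.997. Engrafted array 3 stood apart. Its choroid plexus score, the mean of 14 genes each centred on its mean over the 18 arrays, was -2.16, against 0.26 to 0.54 in the other 5 arrays, and its erythroid score was 0.61 against -0.19 to -0.03. The choroid plexus score was also low in deficient arrays 1 and 3, at -2.13 and -2.26. Results that turn on this array are given with and without it. The samples carried genes of the arachnoid and dural layer (Aldh1a2, 10.58 to 11.09 over the 6 arrays, and Crabp2, 10.31 to 10.81), which mark meningeal fibroblasts. They also carried neuronal Camk2a (11.55 to 12.58) and the pineal and mast cell gene Tph1 (12.93 to 13.28), and 0 of 13 neuron, 0 of 11 astrocyte, 0 of 15 pineal and 0 of 14 choroid plexus genes had an unadjusted p under 0.05. In whole tissue, fewer cells of a type and less RNA per cell cannot be told apart.

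No probe set passed the threshold. In limma with Benjamini-Hochberg adjustment, 0 of 21640 probe sets (0.0%) had an adjusted p under 0.05, and the smallest adjusted p was 0.0647, for Vdr. At an unadjusted p under 0.05 there were 4143 probe sets (19.1%), where 1082 would be expected if nothing differed. They split into 2159 higher (9.98%) and 1984 lower (9.17%) in engrafted dura, and this split depended on the scaling, with 3673 higher and 1080 lower when each array was centred on its median and 2765 higher and 1393 lower after a second quantile normalization. Without wild-type array 2 it was 2881 higher and 1071 lower. The 3 engrafted and the 3 wild-type arrays did not overlap in 5298 probe sets (24.5%), of which 2628 were higher (12.1%) and 2670 lower (12.3%). Other fits of the same contrast called between 0 and 164 probe sets, the latter with array weights, and without engrafted array 3 the count at an unadjusted p under 0.05 was 2156. In what follows, "higher" and "lower" describe the difference between group means, and counts are of genes with an unadjusted p under 0.05. Each naive list count stands beside shares of 9.98% higher and 9.17% lower over all probe sets, and each stroke count beside 6.64% and 4.93%. These shares move when arrays are left out, and none is given for list differences above 0 in naive dura. The lists were chosen with earlier results of these data known, so no list count is an independent test. The adjusted p of limma is given beside the genes shown by array. Among these probe sets no engrafted minus wild-type difference in naive dura passed after adjustment.

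Mast cell genes in engrafted dura lay around the wild-type mean, with a median difference of 0.01 over 29 measured genes, and spread widely between the engrafted mice. Kit itself was lower and lay near the deficient level, a difference that leaned on wild-type array 2. Of 29 measured mast cell genes, 15 were lower in naive deficient than in naive wild-type dura at p under 0.05 (4.06% of all probe sets were lower in that contrast), by 0.17 to 4.73, and the engrafted minus wild-type differences of these 15 ran from -0.42 to 0.38. The lowest engrafted array lay above the highest deficient array in 12 of the 15, against 8.52% of all probe sets. These 15 were picked for low values in the same deficient arrays. The count is thus partly built in, and the share is not a like comparator. Engrafted and wild-type arrays overlapped in 14 of the 15, all but Kit, while 24.5% of all probe sets did not overlap.

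Kit had levels of 9.41, 9.83 and 9.36 in wild-type arrays 1, 2 and 3, and of 9.19, 9.07 and 9.07 in engrafted arrays 1, 2 and 3. The groups did not overlap, and the engrafted arrays sat beside the deficient ones, at 8.98, 8.91 and 9.19. The difference was -0.42 ± 0.15 (SE), with an adjusted p of 0.17 by limma, and without wild-type array 2 it was -0.27 and its unadjusted p was above 0.05. Engrafted minus deficient, which shares the engrafted arrays with this comparison, was 0.09 (adjusted p = 0.962). After stroke the engrafted minus wild-type difference of Kit was 0.16 (adjusted p = 0.755), and the stroke minus naive change of that difference was 0.58 (adjusted p = 0.27).

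Cpa3 encodes mast cell carboxypeptidase A3, a granule protease. Its level was 9.79, 9.13 and 9.41 in wild type, 5.82, 5.66 and 5.80 in deficient and 10.90, 9.67 and 8.76 in engrafted arrays 1, 2 and 3. The engrafted values straddled the wild-type ones, with array 1 above and array 3 below all 3 of them, and all engrafted arrays were far above the deficient ones. The difference from wild type was 0.34 ± 0.37 (adjusted p = 0.641), and without engrafted array 1 it was -0.23.

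Mcpt2, a chymase gene, read 10.05, 9.71 and 9.61 in wild type, 4.93, 5.13 and 5.13 in deficient and 10.77, 9.40 and 8.64 in engrafted dura. Mcpt4, the main connective tissue mast cell chymase, read 9.24, 8.99 and 9.19, then 5.40, 5.82 and 5.59, then 10.39, 8.95 and 8.12 in the same order. In both, engrafted array 1 was the highest of the 9 naive arrays and array 3 lay under every wild-type array. The SD of Mcpt4 was 0.13 over the 3 wild-type and 1.15 over the 3 engrafted arrays, and that of Mcpt2 was 0.23 and 1.08. Differences from wild type were 0.02 ± 0.37 for Mcpt4 (adjusted p = 0.986) and -0.18 ± 0.36 for Mcpt2 (adjusted p = 0.807), and the direction of both turned when single arrays were left out.

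The same order of mice ran through the list. Among the 15 genes, engrafted array 1 was the highest engrafted array in 14 and array 3 the lowest in 12, and the engrafted range was wider than the wild-type range in 11. Tpsb2, a tryptase gene, was 8.52, 8.21 and 8.29 in wild type and 8.81, 8.23 and 7.89 in engrafted dura. Mrgprb1, a member of the Mrg receptor family, was 6.59, 6.16 and 6.61 against 7.22, 6.42 and 5.74, with wild-type values under the lower quartile of every array. The mean of the centred mast cell list was 0.26, -0.04 and -0.18 in engrafted arrays 1, 2 and 3 and -0.04 to 0.03 in wild type. Leaving out engrafted array 1 raised the number of mast cell genes lower at p under 0.05 from 1 to 7 of 29.

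Fc receptor and histamine genes were close to wild type as well. Fcer1a, the IgE-binding chain of the high-affinity IgE receptor, was 6.15, 6.02 and 6.10 in wild type and 7.06, 6.30 and 6.06 in engrafted dura, a difference of 0.38 ± 0.18 (adjusted p = 0.265). Its wild-type values lay under the lower quartile of every array. Hdc, which makes histamine, differed by -0.19 ± 0.14 (adjusted p = 0.469), Slc18a2, which loads amines into granules, by 0.08 ± 0.10 (adjusted p = 0.713), and Tpsab1, a tryptase, by -0.17 ± 0.12 (adjusted p = 0.462). Only 2 of the 29 were higher at p under 0.05: Fcer1g, the shared signalling chain of Fc receptors in many leukocytes, at 0.26 ± 0.10 (adjusted p = 0.209), and the granzyme gene Gzmb at 0.42 ± 0.13 (adjusted p = 0.137). Gzmb was 6.28, 6.33 and 6.40 in wild type and 7.14, 6.75 and 6.39 in engrafted dura, so that array 3 overlapped wild type, and the wild-type values lay under the lower quartile of every array. Deficient dura had 6.32, 6.19 and 6.41 for Gzmb, in the wild-type range.

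**Figure D1:**
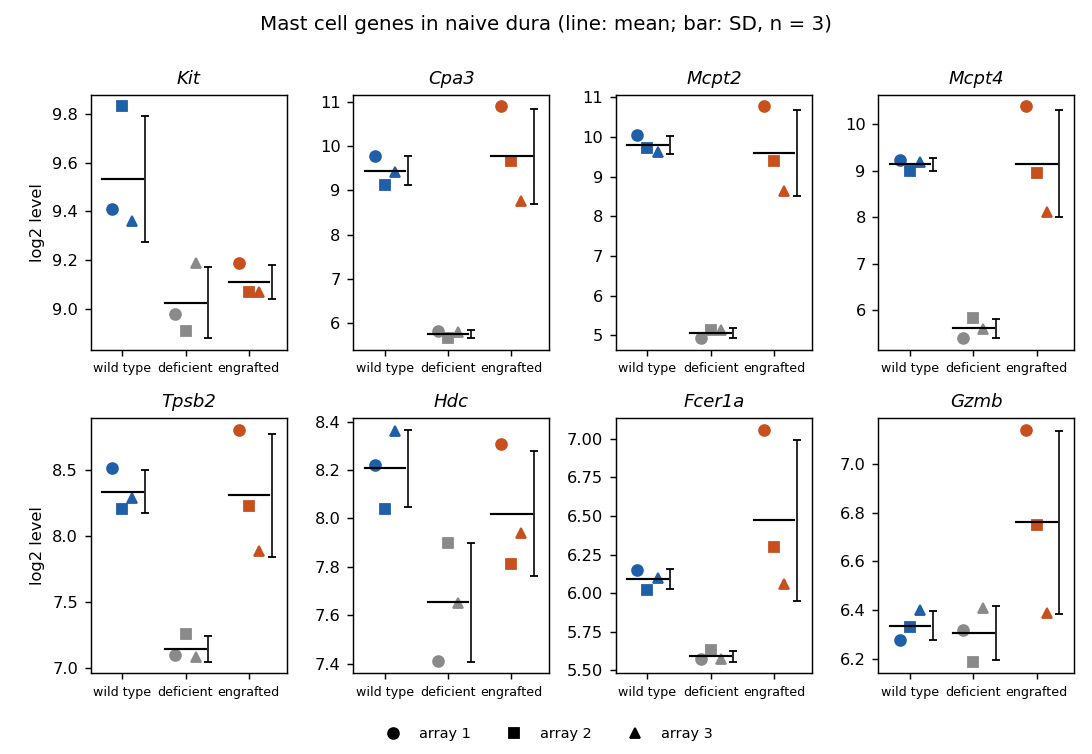
Log2 levels of 8 mast cell genes (vertical axes, each with its own range) in the 9 naive arrays, with 1 point per array, the group mean as a line and the SD over 3 arrays as a bar. Array numbers are those of the array titles. The engrafted points of Cpa3, Mcpt2, Mcpt4 and Tpsb2 spread above and below wild type, while those of Kit lie near the deficient points.

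Genes of osteoclasts, the bone-resorbing cells that line the inner skull next to the dura, were higher in engrafted dura, together with Vdr. Of 15 osteoclast genes, 11 were higher and 0 lower at p under 0.05, against 9.98% and 9.17% of all probe sets. Of the 15, 10 did not overlap on the higher side, against 12.1% of all probe sets. This list too was chosen with earlier results of these data known, so its counts describe and do not test. The median difference was 0.41, against 0.00 over all probe sets tested. Osteoclasts form from myeloid precursors under RANKL and RANK signalling, fuse, pump acid through a vacuolar proton pump and digest bone matrix with cathepsin K and other enzymes.

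Vdr, the nuclear receptor for active vitamin D, had the smallest p of all tested probe sets. It was 8.34, 8.12 and 7.71 in wild type and 9.02, 9.17 and 9.09 in engrafted arrays 1, 2 and 3. Every engrafted array lay above every wild-type array, and the wild-type values were the more spread. The difference was 1.04 ± 0.15, a factor of 2.05 (adjusted p = 0.0647 by limma). Over the alternative fits it ranged from 0.86 to 1.18, with adjusted p from 0.0118 to 1.0, the latter against a minimum change of 1.5-fold, and 8 of these fits called it. Deficient arrays read 8.85, 8.91 and 8.77, a difference from the same wild-type arrays of 0.79, and engrafted minus deficient was 0.25 (adjusted p = 0.917).

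Atp6v0d2 encodes an osteoclast subunit of the proton pump and had the largest difference of the list. Its level was 7.67, 8.13 and 8.18 in wild type and 9.48, 9.32 and 9.50 in engrafted dura, a difference of 1.44 ± 0.29 or a factor of 2.71 (adjusted p = 0.099). Acp5, tartrate-resistant acid phosphatase, was 10.09, 10.76 and 10.45 against 11.64, 11.59 and 11.77, a difference of 1.23 ± 0.21 (adjusted p = 0.0854). In both genes the engrafted arrays lay within a narrow band above all wild-type arrays. Mmp9, a gelatinase of osteoclasts and neutrophils, was 9.92, 10.19 and 9.92 against 11.04, 11.04 and 11.20, a difference of 1.08 ± 0.21 (adjusted p = 0.0904). Oscar, a co-stimulatory receptor of osteoclasts, was 7.22, 7.69 and 7.55 against 8.21, 8.16 and 8.25, a difference of 0.72 ± 0.13 (adjusted p = 0.0884).

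The proteinase gene Ctsk, which encodes cathepsin K, was 10.74, 10.66 and 10.78 in wild type and 11.42, 11.23 and 11.61 in engrafted dura (0.69 ± 0.18, adjusted p = 0.125). Ocstamp and Dcstamp, needed for the fusion of osteoclasts, were higher by 0.53 and 0.41, Itgb3, the beta chain of their adhesion receptor, by 0.59, and Calcr, the calcitonin receptor, by 0.41. Calcr and Dcstamp were dim, with wild-type levels under the lower quartile of all arrays. Tcirg1, another proton pump subunit, was higher by 0.22 and Tnfrsf11a, which encodes RANK, by 0.20. Members with p above 0.05 were the chloride transporter Clcn7 (-0.14) and its partner Ostm1 (-0.03), the transcription factor Nfatc1 (0.17) and carbonic anhydrase Car2 (-0.22).

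These differences did not rest on the array that stood apart. Without engrafted array 3, 8 of 15 osteoclast genes were higher at p under 0.05 and the median was 0.36. Deficient arrays lay on the engrafted side: Acp5 read 11.67, 11.25 and 11.42 and Atp6v0d2 9.35, 8.76 and 9.32 there, and the median deficient minus wild-type difference of the list was 0.31. That contrast shares the 3 wild-type arrays, so it is not separate evidence on the wild-type side. Engrafted minus deficient was 0.22 (adjusted p = 0.935) for Acp5 and 0.29 (adjusted p = 0.935) for Atp6v0d2.

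Some signals that drive osteoclasts and some genes of bone-forming cells were higher too. Tnfsf11, which encodes RANKL and is induced by vitamin D in bone cells, was 8.59, 8.43 and 8.47 in wild type and 8.73, 9.09 and 9.32 in engrafted dura, a difference of 0.55 ± 0.11 (adjusted p = 0.101), and passed in 2 alternative fits (adjusted p from 0.0474 to 1.0 over all alternatives). Engrafted array 1 lay just above the wild-type range. In the vitamin D list, 4 of 15 genes were higher and 0 lower at p under 0.05: Vdr, Tnfsf11, the phosphate hormone gene Fgf23 (0.36) and the calcium channel gene Trpv6 (0.30, dim). Cyp27b1, the enzyme that activates vitamin D, differed by 0.09 and was not among the 4.

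Of 12 osteoblast and bone matrix genes, 5 were higher and 0 lower at p under 0.05, against 9.98% and 9.17% of all probe sets, with a median of 0.26. Sost, the osteocyte inhibitor of Wnt signalling, was 7.50, 7.53 and 7.52 against 7.82, 7.96 and 7.89 (0.37 ± 0.08, adjusted p = 0.101). Pth1r, the parathyroid hormone receptor, was 9.30, 9.24 and 9.31 against 9.73, 9.77 and 10.15 (0.60 ± 0.19, adjusted p = 0.154). Both genes had tight wild-type values below all engrafted ones. Ibsp, bone sialoprotein, was 9.34, 9.69 and 9.51 against 10.71, 10.15 and 10.76 (1.02 ± 0.44, adjusted p = 0.229). Alpl (0.29) and Sparc (0.15) followed. The mean of the centred bone list was -0.23, -0.02 and -0.20 in wild type and 0.10, 0.04 and 0.31 in engrafted arrays 1, 2 and 3, and without array 3 the count was 3 of 12. In deficient arrays 1, 2 and 3 that mean was 0.19, -0.02 and 0.32. The other 7 bone genes, among them Sp7, a factor of bone-forming cells (0.00), Mepe (0.07) and Phex (-0.06), had an unadjusted p above 0.05. The part of bone tissue in the osteoclast gene differences was not tested.

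**Figure D2:**
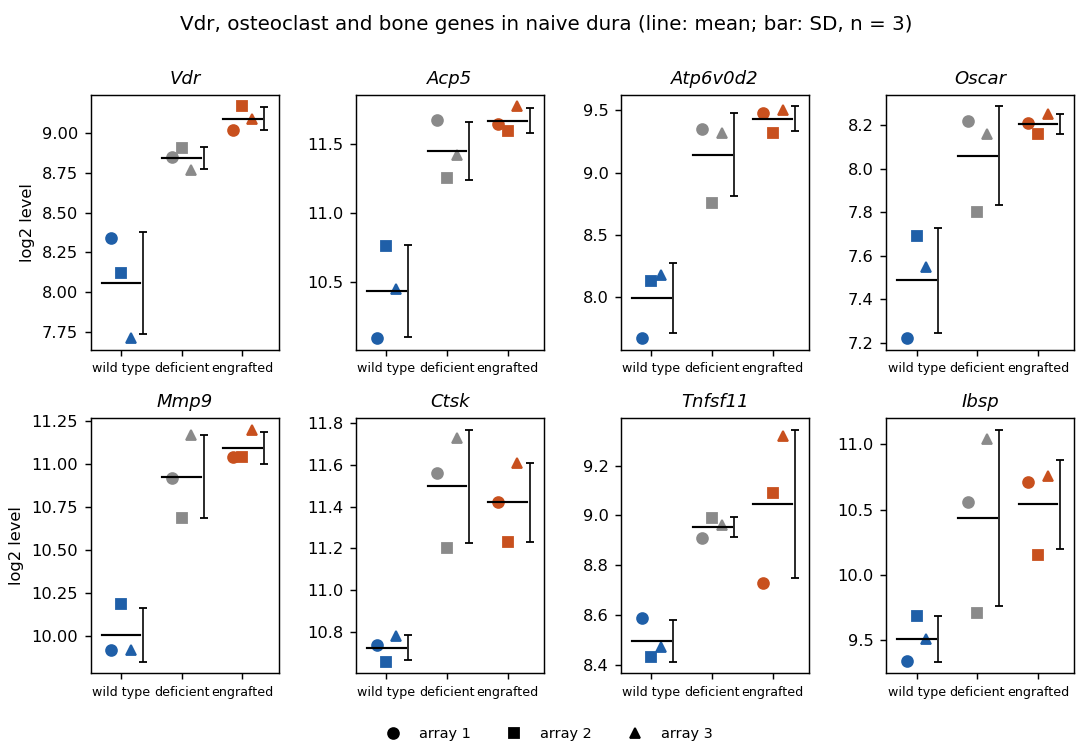
Log2 levels of Vdr, 5 osteoclast genes, Tnfsf11 and Ibsp (vertical axes, each with its own range) in the 9 naive arrays, 1 point per array, with the mean as a line and the SD over 3 arrays as a bar. All 3 engrafted points lie above all 3 wild-type points in each panel, and each deficient mean lies nearer the engrafted than the wild-type mean, while the Ibsp point of deficient array 2 is at 9.71.

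Some connective tissue genes were higher as well. Of 24 collagen and matrix genes, 9 were higher and 0 lower at p under 0.05, against 9.98% and 9.17% of all probe sets. The median was 0.21 and 23 of 24 differences were above 0, for which no share over all probe sets is given. Tnc, which encodes tenascin C, a matrix protein of remodelling tissue, was 10.57, 10.49 and 10.25 in wild type and 11.34, 11.02 and 11.46 in engrafted dura (0.84 ± 0.25, adjusted p = 0.135). Postn, periostin, was 11.84, 11.59 and 11.51 against 12.19, 11.96 and 12.33 (0.51 ± 0.23, adjusted p = 0.251), and Lox, the collagen cross-linking oxidase, 10.76, 10.41 and 10.81 against 11.17, 10.89 and 11.09 (0.39 ± 0.16, adjusted p = 0.215). Fbln1 (0.30), Eln (0.34) and Bgn (0.22), which encode fibulin 1, elastin and biglycan, had the next smallest p after Tnc. Without engrafted array 3, whose collagen score was 0.24 against 0.08 and 0.03 in the other engrafted arrays, 3 of 24 were higher and the median was 0.10. Deficient arrays 1, 2 and 3 had collagen scores of 0.13, -0.02 and 0.33. In the cartilage and tendon list, 4 of 18 were higher and 0 lower: Comp (0.51), Cilp (0.28), Acan (0.45) and Fmod (0.21), with 1 of 18 left without engrafted array 3 or without wild-type array 3. Deficient minus wild type, with the same wild-type arrays, was 0.59, 0.22, 0.56 and 0.28 for these 4. Meningeal fibroblast and arachnoid genes had 1 higher (Smoc2, 0.28) and 1 lower (Aldh1a2, -0.33) of 23.

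Immediate early genes, which are switched on within minutes by growth factors, calcium, cAMP or stress without new protein, were lower in engrafted dura in part. Of 24 members, 8 were lower and 1 higher at p under 0.05, against 9.17% and 9.98% of all probe sets. Of the 24, 9 did not overlap on the lower side, against 12.3% of all probe sets. The lower members were the nuclear receptors Nr4a1 and Nr4a2, Atf3, Btg2, Dusp1, Klf4, Zfp36 and Klf2, and the higher one was Fosl1. Fos, Jun, Egr1 and Arc, also members, had p above 0.05.

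The promoters of 4 lower members and of Coq10b are shown because they hold the motif that is counted below in the lower genes. Each line gives the 250 bases before a transcript start of the gene in RefSeq's promoter table, build GRCm38.p6 (for Nr4a1 a start inside the span of the RefSeq gene, for the other genes its outer end), 5′ to 3′ on the gene's strand, with capitals marking TGACG and its reverse complement CGTCA, the core of the cAMP response element to which CREB and ATF proteins bind. The windows are chr15:101266596-101266845 on the plus strand for Nr4a1, chr2:57124004-57124253 on the minus strand for Nr4a2, chr17:26508473-26508722 on the minus strand for Dusp1, chr1:134079156-134079405 on the minus strand for Btg2 and chr1:55052520-55052769 on the plus strand for Coq10b, a mitochondrial coenzyme Q gene that was no member of the list but was among the 12 lower genes with the smallest p.
Nr4a1: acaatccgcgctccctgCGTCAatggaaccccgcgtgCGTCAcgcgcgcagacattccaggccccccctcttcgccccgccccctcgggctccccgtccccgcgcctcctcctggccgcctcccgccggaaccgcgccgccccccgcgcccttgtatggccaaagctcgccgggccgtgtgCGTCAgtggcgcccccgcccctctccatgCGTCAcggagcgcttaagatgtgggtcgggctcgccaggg
Nr4a2: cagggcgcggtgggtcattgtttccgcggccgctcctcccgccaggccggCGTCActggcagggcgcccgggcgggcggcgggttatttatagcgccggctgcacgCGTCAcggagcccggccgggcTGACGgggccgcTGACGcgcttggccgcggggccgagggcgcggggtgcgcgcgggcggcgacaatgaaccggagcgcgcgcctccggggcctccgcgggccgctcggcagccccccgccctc
Dusp1: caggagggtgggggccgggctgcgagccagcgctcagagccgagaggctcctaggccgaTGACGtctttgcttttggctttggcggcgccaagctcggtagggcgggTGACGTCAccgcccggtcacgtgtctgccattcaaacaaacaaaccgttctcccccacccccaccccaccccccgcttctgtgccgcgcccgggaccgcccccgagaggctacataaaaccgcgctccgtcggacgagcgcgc
Btg2: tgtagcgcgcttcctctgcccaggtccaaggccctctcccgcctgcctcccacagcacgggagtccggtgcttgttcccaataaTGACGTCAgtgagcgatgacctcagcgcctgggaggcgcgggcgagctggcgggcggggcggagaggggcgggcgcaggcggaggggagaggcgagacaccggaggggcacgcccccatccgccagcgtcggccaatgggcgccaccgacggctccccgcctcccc
Coq10b: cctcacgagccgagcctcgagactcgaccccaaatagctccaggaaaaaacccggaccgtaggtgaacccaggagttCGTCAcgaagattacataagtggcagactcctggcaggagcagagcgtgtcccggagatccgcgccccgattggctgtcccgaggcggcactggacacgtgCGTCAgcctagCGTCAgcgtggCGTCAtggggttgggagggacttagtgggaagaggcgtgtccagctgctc

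TGACG or CGTCA occurred 4 times in the window of Nr4a1, 4 times in Nr4a2, 3 times in Dusp1, 2 times in Btg2 and 4 times in Coq10b. In Dusp1 and Btg2 a match on each strand overlapped to form the full palindrome TGACGTCA. Over all 27025 genes with a window, 19.8% held a match on either strand, where a gene counted if any window listed for it held a match. Among the immediate early genes it was 7 of the 8 lower members (87.5%) and 7 of the 11 other members with a window (63.6%). Of the 12 lower genes with the smallest p, 9 had a window and 6 of these held a match. Of the 12 higher ones, 11 had a window and 1 held a match, and of the 11 higher osteoclast genes, 6 had a window and 3 held a match. A match describes the letters of the window, not binding.

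Nr4a1, an orphan nuclear receptor induced by many stimuli, had the largest immediate early difference. Its level was 11.26, 11.38 and 11.23 in wild type and 9.95, 9.91 and 9.90 in engrafted arrays 1, 2 and 3. The groups were far apart and both were tight, with SDs of 0.08 and 0.03 over 3 arrays, while the deficient arrays spread from the wild-type level to near the engrafted level, at 10.95, 11.36 and 10.10. The difference was -1.37 ± 0.26, a factor of 2.59 (adjusted p = 0.0904 by limma), and engrafted minus deficient was -0.88 (adjusted p = 0.917). Its standard error comes from all 18 arrays, and with only the 6 arrays compared the adjusted p was 0.000719. Over all alternatives the adjusted p ran from 0.000719 to 1.0 and the difference from -1.40 to -1.32.

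Nr4a2, a close relative, was 10.81, 11.12 and 11.05 in wild type and 10.13, 10.28 and 10.04 in engrafted dura (-0.84 ± 0.17, adjusted p = 0.091). Atf3, a stress-induced repressor, was 8.76, 8.70 and 8.66 against 8.10, 7.93 and 8.11 (-0.66 ± 0.14, adjusted p = 0.105). In both genes the deficient arrays lay mostly on the wild-type side or between, at 10.74, 11.19 and 10.29 for Nr4a2 and 8.58, 8.28 and 8.45 for Atf3. Dusp1, a phosphatase that shuts off MAP kinases, was 10.48, 11.11 and 10.62 against 10.18, 9.89 and 10.27 (-0.62 ± 0.20, adjusted p = 0.154). Btg2, an antiproliferative gene, was 10.60, 10.79 and 10.41 against 10.20, 10.14 and 10.21 (-0.42 ± 0.11, adjusted p = 0.125). Klf4 (-0.36), Klf2 (-0.28) and Zfp36, which destabilises cytokine mRNAs (-0.28), completed the 8.

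Among the members with an unadjusted p above 0.05, Fos was 7.44, 8.54 and 7.78 in wild type and 7.52, 7.60 and 7.73 in engrafted dura (-0.30 ± 0.23, adjusted p = 0.476), Egr1 9.53, 10.01 and 9.26 against 9.25, 9.48 and 9.75 (-0.11 ± 0.26, adjusted p = 0.847), and Arc 8.74, 8.98 and 9.38 against 9.0, 9.60 and 10.33 (0.61 ± 0.44, adjusted p = 0.458). All 3 overlapped between the groups. Junb differed by -0.03 and Fosb by 0.02. Fosl1, which encodes Fra-1, was 6.79, 6.77 and 6.72 against 6.95, 7.07 and 7.05, near the lower quartile of the arrays (0.26 ± 0.08, adjusted p = 0.138), and was chosen for mention after its values were seen. The count of 8 lower members was also 8 without engrafted array 3 and was 5 without wild-type array 2.

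The other 10 of the 12 lower genes with the smallest p were outside the immediate early list. Slc25a25, a mitochondrial ATP-Mg carrier, was 9.51, 9.69 and 9.67 in wild type and 8.92, 8.79 and 8.62 in engrafted dura (-0.85 ± 0.14, adjusted p = 0.0854). Sik1, a kinase that restrains CREB co-activators, was 10.27, 10.61 and 10.44 against 9.78, 9.64 and 9.59 (-0.77 ± 0.14, adjusted p = 0.0904). Engrafted arrays lay below all wild-type arrays in both. Rasd1, a Ras-related gene induced by glucocorticoid, was 8.80, 9.37 and 9.0 against 8.46, 8.09 and 8.37 (-0.75 ± 0.13, adjusted p = 0.0854), and Coq10b 10.03, 10.47 and 10.22 against 9.68, 9.40 and 9.38 (-0.75 ± 0.15, adjusted p = 0.099). The remaining lower genes of the 12 were Bsph1 (-0.66, dim), Hilpda, a lipid droplet gene induced by low oxygen (-0.43), Rbm11, a splicing factor (-0.59), Zkscan2 (-0.51), Arxes2 (-0.74) and Rasgef1b (-0.60), with adjusted p between 0.0854 and 0.101. Deficient dura was also below the same wild-type arrays in all 10, from -0.60 for Rasd1 and Bsph1 to -0.22 for Hilpda. Engrafted minus deficient ran from -0.43 for Arxes2 to -0.03 for Zkscan2. Of 16 glucocorticoid-induced genes, 3 were lower, among them Ddit4 (-0.45) and Errfi1 (-0.29), and 1 was higher, the zinc finger gene Zbtb16.

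**Figure D3:**
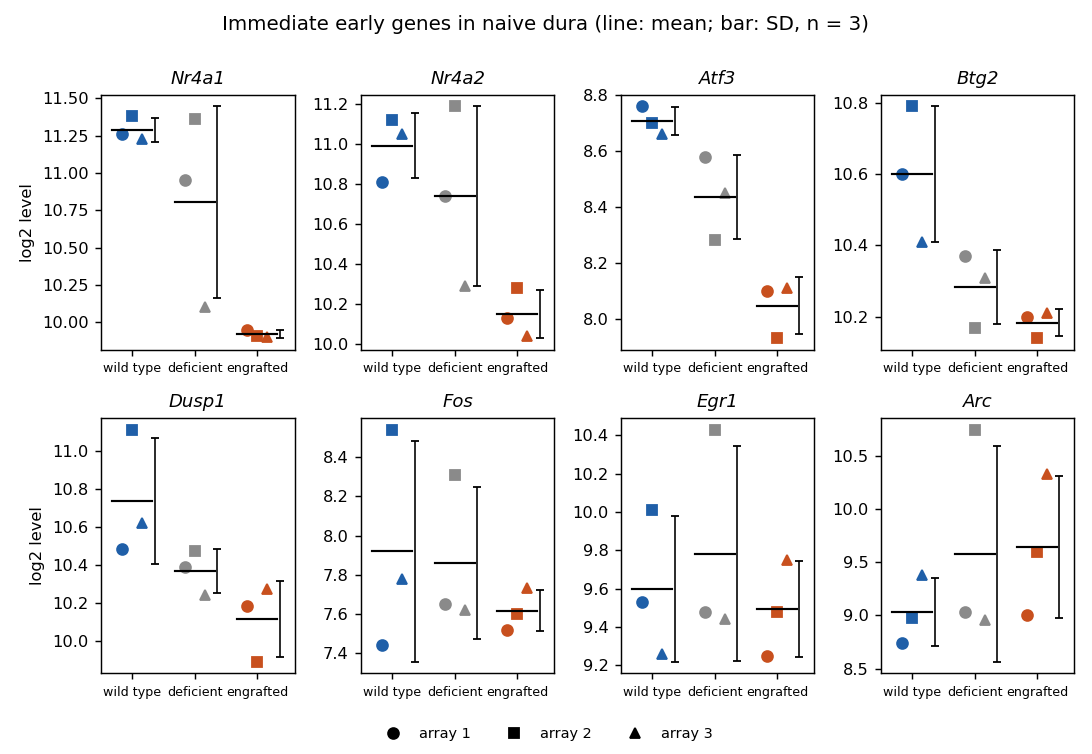
Log2 levels of 8 immediate early genes (vertical axes, each with its own range) in the 9 naive arrays, 1 point per array, with the mean as a line and the SD over 3 arrays as a bar. The engrafted points of Nr4a1, Nr4a2, Atf3, Btg2 and Dusp1 lie below all wild-type points, while those of Fos, Egr1 and Arc overlap them.

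Neutrophil genes were lower in engrafted arrays 1 and 2 and near wild type in array 3. Of 19 mature neutrophil genes, 4 were lower at p under 0.05 (Il1b, Stfa2, Mmp8 and Retnlg) and 1 was higher (Mmp9, also an osteoclast gene), with a median of -0.55. Retnlg, a resistin-like gene of neutrophils, was 10.32, 9.38 and 10.29 in wild type and 8.74, 8.58 and 10.15 in engrafted dura (-0.84 ± 0.37, adjusted p = 0.241). S100a8, a calprotectin subunit, was 10.60, 9.59 and 10.38 against 8.98, 8.93 and 10.49 (-0.72 ± 0.44, adjusted p = 0.376). Engrafted array 3 lay within the wild-type range for both genes, and the other engrafted arrays lay below it. Without array 3, 11 of 19 were lower and the median was -0.71.

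Deficient dura read 8.11, 8.67 and 8.43 for Retnlg and 8.08, 8.76 and 8.40 for S100a8, below every wild-type array, with a median deficient minus wild-type difference of -1.0 over the list, again against the same wild-type arrays. The neutrophil score was 0.29, 0.01 and 0.27 in wild type and -0.40, -0.41 and 0.24 in engrafted arrays 1, 2 and 3. Markers of immature marrow cells moved with array 3, at 0.33 for granulocyte precursor genes against -0.12 and -0.06 in the other engrafted arrays, and the part of blood or marrow left in that sample was not tested. Il1b, an inflammatory cytokine, was low in all 3 engrafted arrays: it was 7.08, 7.54 and 7.42 in wild type and 6.71, 6.56 and 6.76 in engrafted dura (-0.67 ± 0.21, adjusted p = 0.146).

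Red cell genes showed the same split between the engrafted mice. Slc4a1, the band 3 anion exchanger of red cells, was 8.95, 8.60 and 9.09 in wild type and 8.78, 9.01 and 10.31 in engrafted dura (0.48 ± 0.38, adjusted p = 0.495). Array 3 alone was raised. Of 11 erythroid genes, 1 was higher at p under 0.05, the transcription factor Gata1, at 6.27, 6.28 and 6.44 against 6.55, 6.60 and 6.69 (0.29 ± 0.07, adjusted p = 0.125), where all 3 engrafted arrays were above wild type and all 6 values were dim. Of 8 platelet genes, 3 were higher and 0 lower: Gp9 (0.62), Treml1 (0.31) and Vwf (0.36). That count was 0 without wild-type array 1, 1 without wild-type array 3 or engrafted array 3, and 0 without the 5 arrays lowest in the choroid plexus gene Ttr.

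Some resident macrophage and complement genes were higher by small amounts. Of 16 resident macrophage genes, 5 were higher and 0 lower at p under 0.05, against 9.98% and 9.17% of all probe sets. All 16 differences were above 0, for which no share over all probe sets is given, with a median of 0.13. Some were close to 0, such as Lyve1 (0.01) and Timd4 (0.02). Ccl8, a chemokine of tissue macrophages, was 9.28, 9.49 and 9.08 in wild type and 10.25, 9.61 and 10.20 in engrafted dura (0.73 ± 0.19, adjusted p = 0.125). Cd209f, a C-type lectin, was 10.04, 10.44 and 9.48 against 10.59, 10.50 and 10.40 and overlapped (0.51 ± 0.18, adjusted p = 0.175). F13a1, coagulation factor XIII A (0.32), Csf1r, the macrophage growth factor receptor (0.23), and Cbr2 (0.38) followed. Without engrafted array 3 or without wild-type array 3, 2 of 16 were higher. The list score was 0.12, -0.14 and 0.21 in deficient and 0.14, -0.05 and 0.22 in engrafted arrays 1, 2 and 3. Deficient arrays read 9.87, 9.47 and 10.06 for Ccl8. In a separate monocyte and macrophage list, 2 of 16 were higher (Arg1, 0.41, and F10, 0.28) and 0 lower, with a median of 0.08. There Ccr2 (-0.04), Cd14 (-0.12), Cx3cr1 (-0.05) and Chil3 (-0.78) were below 0, with p above 0.05.

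Of 16 complement genes, 5 were higher and 0 lower, against 9.98% and 9.17% of all probe sets. C1qb, a chain of the C1q recognition protein, was 11.28, 10.94 and 11.08 in wild type and 11.59, 11.45 and 11.55 in engrafted dura (0.43 ± 0.08, adjusted p = 0.0904). All engrafted arrays were above all wild-type arrays. C1qc (0.27) and C1qa (0.12), the other C1q chains, differed by less, and C1qc, Cfp, properdin (0.44), Serping1, the C1 inhibitor (0.20), and Cfb, factor B (0.28), made up the 5. Without engrafted array 3 or without wild-type array 3 the count was 2 of 16. The complement score was 0.06, -0.12 and 0.18 in deficient and 0.09, -0.02 and 0.15 in engrafted arrays 1, 2 and 3. Wfdc17, a myeloid secreted protein gene, was 10.98, 10.65 and 10.42 against 11.27, 11.27 and 11.39 (0.63 ± 0.11, adjusted p = 0.0854).

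Cytokine and chemokine genes had 7 of 36 higher and 1 lower at p under 0.05. Cxcl1, a neutrophil attractant, was 6.89, 6.97 and 6.87 in wild type and 7.21, 7.30 and 7.32 in engrafted dura (0.37 ± 0.08, adjusted p = 0.105). Engrafted values were above wild type in every array, at levels near the lower quartile. The others were Ccl8, Csf2 (0.21, dim), Cxcl12 (0.26), Ccl4 (0.21, dim), Tgfb1 (0.29) and Ccl24 (0.33), and the lower one was Il1b. Of 17 T and NK cell genes 4 were higher and 0 lower, led by the co-stimulatory receptor Cd28 (0.30, dim) and Cd4 (0.37). Without wild-type array 1 it was 1 higher and 1 lower, without wild-type array 3 it was 4 and 2, and without engrafted array 1 it was 5 and 2. Of 17 B cell genes 3 were higher, led by the surrogate light chain gene Vpreb1 (0.39 ± 0.08, adjusted p = 0.099), which was dim at 6.23, 6.31 and 6.21 against 6.57, 6.64 and 6.71. The B cell count was 1 without wild-type array 3, engrafted array 2 or engrafted array 3.

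Among genes of any list or none, the largest higher differences without overlap also held immunoglobulin genes and Zbtb16. Ighm, the IgM heavy chain, was 8.05, 8.12 and 7.84 in wild type and 8.73, 8.80 and 9.24 in engrafted dura (0.92 ± 0.25, adjusted p = 0.128). Probe set 10545173, of a kappa light chain variable gene whose probes can bind close relatives, was 8.76, 8.75 and 9.01 against 10.38, 9.82 and 9.19 (0.96 ± 0.44, adjusted p = 0.255). Its deficient arrays read 9.58, 10.22 and 10.53, and those of Ighm 8.79, 9.10 and 8.38, all above wild type. Zbtb16, which encodes PLZF, was 9.29, 9.68 and 10.75 against 11.31, 10.94 and 11.38 (1.31 ± 0.34, adjusted p = 0.125), so that wild-type array 3 lay close under the engrafted arrays. The other higher genes with the smallest p were B4galnt3 (0.43), Ttc28 (0.38), Fam89a (0.42), Prss46 (0.44, dim), Mug2 (0.33, dim) and Col27a1 (0.44), with adjusted p between 0.0854 and 0.0904. On the lower side the largest differences without overlap included Stfa2, a neutrophil stefin (-1.11), Tmem30c (-0.93), the glycine transporter Slc6a5 (-0.88), Map3k19 (-0.86) and Tcim (-0.80).

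Melanocytes, like mast cells, need Kit, but their genes gave a mixed list. Over 18 melanocyte genes, 2 were lower at p under 0.05 (Kit, the mutated gene itself, and Gpr143, -0.21), with a median of -0.09. The 3 higher ones were Tyr (0.19) and Trpm1 (0.18), both dim, and Mlana (0.28). Without wild-type array 2 the lower genes were 0 in number, and without engrafted array 3 it was 1 higher and 1 lower. Dct, a pigment synthesis enzyme, was not among the lower 2. It was 7.83, 8.11 and 7.76 in wild type, 7.68, 7.02 and 7.30 in deficient and 7.56, 7.53 and 7.19 in engrafted dura (-0.47 ± 0.27, adjusted p = 0.358). Its engrafted arrays lay below wild type without overlap, as for Kit.

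Clock and fat genes gave mixed lists. Of 17 circadian clock genes, Nr1d1, a repressor of the clock, was higher (10.67, 10.18 and 10.39 against 10.80, 10.92 and 11.39, 0.63 ± 0.17, adjusted p = 0.128), as was 1 other, while Hlf (-0.22), Nfil3 (-0.30) and Per1 (-0.37) were lower. The 3 lower clock genes were 1 in number without wild-type array 2 or 3 or engrafted array 2 or 3. Of 19 adipocyte genes, 4 were higher and 3 lower, and Arxes2 and Arxes1, neighbouring near-identical genes whose signals can be shared, led the lower ones at -0.74 ± 0.15 (adjusted p = 0.099) and -0.46 ± 0.13 (adjusted p = 0.135). The 4 higher adipocyte genes were 0 without engrafted array 3, 1 without wild-type array 1 and 2 without wild-type array 3, and the 3 lower stayed at 3 in number. In the blood endothelial list, Eng, the TGF-beta co-receptor endoglin, was 11.35, 11.30 and 11.35 against 11.66, 11.81 and 11.82 (0.43 ± 0.10, adjusted p = 0.111), Plvap, of fenestrated vessels, differed by 0.39, and Slco1a4, a barrier transporter, by -0.55. The 4 higher endothelial genes were 2 without wild-type array 1 or 3 or engrafted array 3. Of 12 basophil genes 4 were higher, led by the cytokine receptor chain Csf2rb (0.45), and the basophil marker Mcpt8 was not among them (-0.27). That count was 1 without wild-type array 3 and 2 without wild-type array 1 or engrafted array 3.

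**Figure D4:**
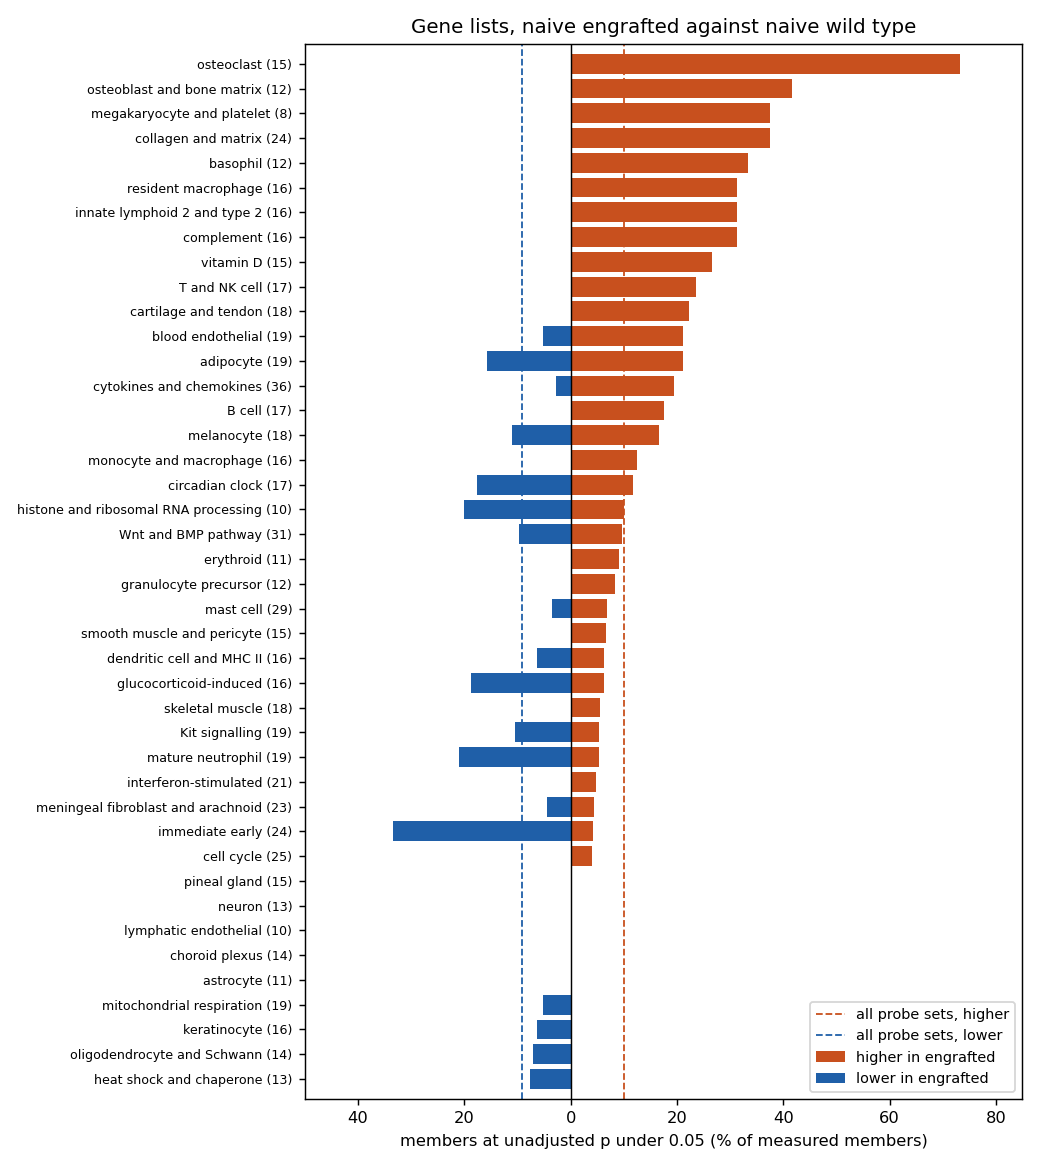
Share of the measured members of each of 42 gene lists (member count in brackets) that were higher (right) or lower (left) in naive engrafted than in naive wild-type dura at an unadjusted p under 0.05, with dashed lines at the shares over all probe sets, 9.98% and 9.17%. The osteoclast list reaches 11 of 15 on the right and the immediate early list 8 of 24 on the left.

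Of 21 interferon-stimulated genes 1 was higher (Oasl1, 0.27) and 0 lower, with a median of -0.16. Without wild-type array 3 it was 0 higher and 8 lower with a median of -0.28, and without wild-type array 1 the median was -0.01. Of 25 cell cycle genes 1 was higher (Pcna, 0.25), and of 18 skeletal muscle genes 1 was higher (Actn3, 0.47) with a median of 0.42 and wide spread. Of 31 Wnt and BMP pathway genes, 3 were higher (Dkk2, 0.40, Wnt10b, 0.32, and Wnt5b, 0.30) and 3 lower, led by Wnt5a (-0.30). Both counts were near the shares over all probe sets. Of 19 Kit signalling genes 2 were lower, Kit and Sos1 (-0.24), and 1 was higher, Stat5a (0.20). Kitl, the ligand of Kit, differed by -0.10 ± 0.11 (adjusted p = 0.668). Lymphatic endothelial genes had 0 of 10 at p under 0.05, heat shock genes 1 of 13, keratinocyte genes 1 of 16 and mitochondrial respiration genes 1 of 19, each lower. Over the cell cycle, muscle, Wnt and BMP, Kit signalling, lymphatic, heat shock, keratinocyte and mitochondrial lists, the count in either direction ran from 0 to 5 when single arrays were left out.

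The stroke arrays, which share no array with the naive ones, held 89 called probe sets for engrafted minus wild type (0.411%), 21 higher and 68 lower. The naive differences were set against these arrays. Of the 1984 probe sets lower at p under 0.05 in naive dura, 72.9% were below 0 after stroke, against 58.0% of all probe sets, and 7.46% were lower at p under 0.05, against 4.93%. Of the 2159 higher ones, 42.8% were above 0, against 42.0%, and 4.68% were higher at p under 0.05, against 6.64%. Neighbouring probe sets and genes share signal, so these shares carry no test.

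For osteoclast genes the median difference after stroke was -0.03, 0 of 15 were higher at p under 0.05, and Acp5 was 10.70, 11.49 and 11.12 in wild type and 10.67, 11.19 and 11.32 in engrafted stroke dura. The stroke minus naive change of the difference was -1.28 for Acp5 (adjusted p = 0.139) and had p under 0.05 in 8 of 15 osteoclast genes, against 13.2% of all probe sets, with 0 passing after adjustment. The change contains the naive difference, for which this list stood out, so the count of 8 is not separate evidence. For Vdr the stroke difference was 0.28 (adjusted p = 0.491) and the change -0.75 (adjusted p = 0.188). Collagen genes had a stroke median of -0.08. Wild-type levels of Acp5 and Atp6v0d2 were higher after stroke (means of 11.10 and 9.03) than in naive dura (10.43 and 8.00).

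Some resident macrophage genes were higher in both settings. In naive dura this was 5 of 16 at p under 0.05, and 2 of 16 without engrafted array 3 or without wild-type array 3. After stroke 9 of 16 were higher and 0 lower at p under 0.05, against 6.64% and 4.93% of all probe sets, with a median of 0.32. Ccl8 was 9.14, 9.16 and 9.15 in wild type and 9.65, 9.98 and 9.68 in engrafted stroke dura (0.62, adjusted p = 0.169), again without overlap, and Cd209f differed by 0.64 (adjusted p = 0.15). Zbtb16 was also higher after stroke (1.03, adjusted p = 0.211) and Il1b lower (-0.61, adjusted p = 0.227). Immediate early genes had 8 of 24 lower after stroke too, against 4.93% of all probe sets. Of these 8, 3 (Atf3, Klf4 and Zfp36) were also lower in naive dura. Jun (-0.72, adjusted p = 0.0236) and Fosl1 (-0.69, adjusted p = 0.000677) passed by limma after stroke, and Atf3 differed by -0.57 (adjusted p = 0.108), while Nr4a1 differed by -0.43 (adjusted p = 0.593) and Nr4a2 by -0.02 (adjusted p = 0.978). In wild type, Nr4a1 was 9.27, 9.20 and 9.55 after stroke and so below every naive array.

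The change of the difference between stroke and naive dura passed in 23 probe sets (0.106%). Among list members these were Arg1, Ccl2, Fosl1 and Tgm1, whose engrafted minus wild-type difference was above 0 in naive dura and below 0 after stroke, and Arxes1 and Arxes2, with the opposite order. Arg1, the arginase of alternatively activated macrophages, was 6.11, 5.72 and 5.98 in naive wild type and 6.19, 6.35 and 6.50 in naive engrafted dura (0.41 ± 0.11, adjusted p = 0.131), all dim, and the change was -2.03 (adjusted p = 3.75e-05).

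**Figure D5:**
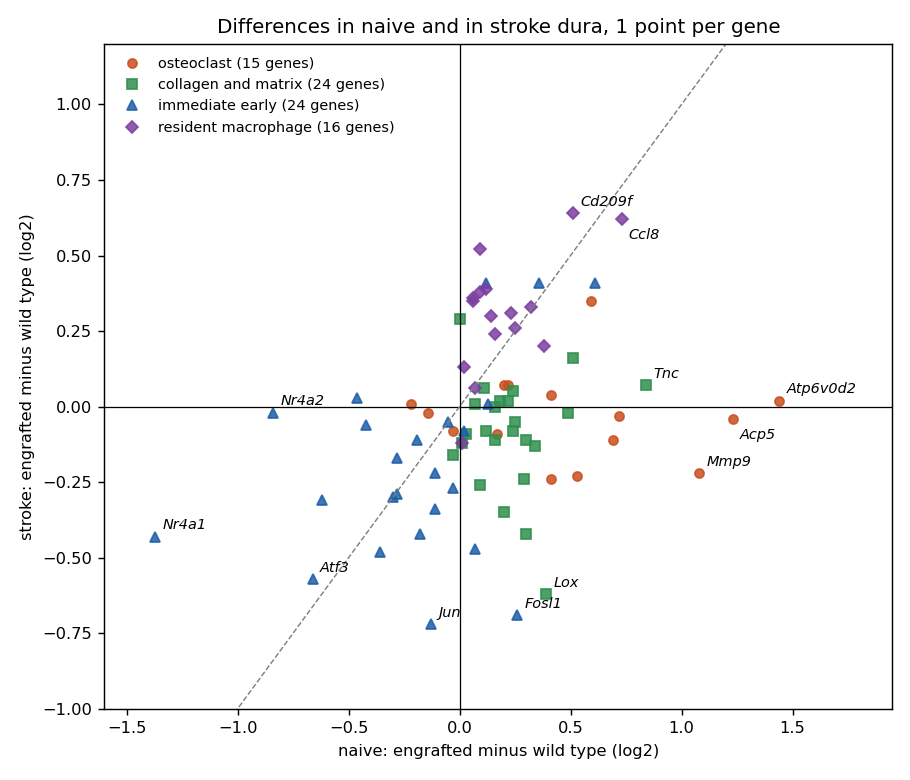
Engrafted minus wild-type difference (log2) in naive dura (horizontal) and in stroke dura (vertical) for the members of 4 gene lists, 1 point per gene, with the dashed line at equal differences. Osteoclast genes spread to the right at stroke differences near 0, and resident macrophage genes lie above 0 on both axes except Lyve1, with Ccl8 and Cd209f farthest out.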

How the data were processed

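Dura of naive and stroke mice was hybridised to Affymetrix mouse gene arrays, 1 mouse per array, and the deposited table holds log2 values per probe set that, per the submitters' processing notes, the authors made with RMA in the affy package of R 3.0.0. Other steps and the genome build are not given in the sources used here. Of 34760 probe sets, 21640 carried exactly 1 gene symbol in the platform annotation and were tested; 1321 with several symbols and 11799 unlisted or without one were left out. All 18 arrays were fitted in limma 3.58.1 (R 4.3.3) with 1 mean per group, moderated variances and Benjamini-Hochberg adjustment over 21640 probe sets at 0.05. The median standard error of the naive difference was 0.096, and p-values measure the spread between these arrays; the number of arrays limits the precision. A gene with several probe sets is given by the one with the highest mean.

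The 42 gene lists and the comparison were chosen with earlier results of these data known. Named genes are Kit and the mast cell list, the 12 higher and 12 lower genes with the smallest p and the 8 with the largest differences in each direction among those whose arrays do not overlap (gene models passed over), and up to 4 members per list with the smallest p. Other list members named in the text were chosen after their values were seen. A value is called dim where the wild-type level lies under the lower quartile of every array, and not every such gene is marked. The code was tested on simulated data. Promoter windows come from RefSeq (GRCm38.p6). The alternatives left out single arrays, dim probe sets or the 5 arrays lowest in Ttr, used a replicate block, another normalization, centring, variance model, array weights, fewer arrays, all probe sets, a minimum change of 1.5-fold, or tissue scores as covariates.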

Additional observations from a re-analysis of the deposited data

Results flagged for a closer look

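The engrafted minus wild-type difference itself differed between stroke and naive dura, by limma's test of the change with an adjusted p under 0.05, in 6 named or listed genes. For Arg1, the change was -2.03 (adjusted p = 3.75e-05), from 0.41 in naive to -1.62 in stroke dura, where wild-type arrays read 8.33, 7.98 and 8.26 and engrafted arrays 6.43, 6.57 and 6.73. Tgm1, a cross-linking enzyme of keratinocytes, changed by -1.78 (adjusted p = 0.0211), and Ccl2, the monocyte attractant, by -1.56 (adjusted p = 0.0497). Fosl1 changed by -0.95 (adjusted p = 0.00351), and Arxes2 and Arxes1 by 1.33 (adjusted p = 0.0216) and 1.06 (adjusted p = 0.044).

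Outside the annotated probe sets, 3 of those with no gene symbol passed in naive engrafted minus naive wild type when all 34760 were tested. Probe set 10339778 differed by -1.47 (adjusted p = 0.0226), at 6.72, 7.08 and 6.88 in wild type and 5.75, 5.39 and 5.14 in engrafted dura. Probe sets 10342396 and 10603066 differed by -0.97 (adjusted p = 0.0226) and -0.64 (adjusted p = 0.0386).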

How the results depend on the processing

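Of 2585 refits of 145 named genes under 18 alternatives, 2491 kept direction and side of the adjusted threshold, 62 newly passed and 32 turned direction, in 11 mast cell list genes. No gene passed in the main fit, so a kept side means only that the adjusted p again was not under 0.05. The naive count of 0 called probe sets became 0 to 6 without single arrays (6 without wild-type array 1), 2 centred on array medians, 3 after a second quantile normalization or with only the 6 arrays, 1 with trended and robust variance or without the 5 arrays lowest in Ttr, 4 with all probe sets, 21 with tissue scores as covariates and 164 with array weights. The count of 4143 at an unadjusted p under 0.05 became 2156 to 4680 without single arrays, 6523 with all probe sets, 9 against a minimum change of 1.5-fold and 1883 without the 5 arrays. Same-numbered wild-type and engrafted arrays did not deviate together (r = -0.10, -0.02 and 0.05), and pairs of unlike number ran from -0.16 to 0.21. With 3 arrays per group these values cannot show whether arrays of the same number shared a batch. With the replicate block 2 probe sets passed in naive dura, 57 in stroke dura and 11 for the change of the difference.

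The stroke count of 89 became 199 with array weights, 4 with the minimum change, 18 with covariates and 28 without the 5 arrays. The count of 23 for the change became 8 to 19 without single arrays, 42 with weights, 1 with the minimum change, 9 with covariates, 8 without the 5 arrays and 74 when centred.

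Without single arrays, bone genes higher at p under 0.05 numbered 3 to 6, collagen and matrix 3 to 10, resident macrophage 2 to 6 and complement 2 to 5, and immediate early genes lower 5 to 10 and neutrophil genes lower 2 to 11. Without the 5 arrays these were 3, 4, 2 and 2 higher, and 11 neutrophil genes lower. Against the minimum change 3 osteoclast, 0 bone, 0 collagen, 0 macrophage and 0 complement genes were higher, and 1 immediate early and 0 neutrophil genes lower. Neutrophil genes lower were 11 with weights or with covariates, and complement genes higher were 3 with only the 9 naive arrays.

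The differences that turned direction came mostly from leaving out single arrays, and the values over those fits ran from -0.23 (without engrafted array 1) to 0.85 for Cpa3, -0.77 to 0.30 for Mcpt2, -0.60 to 0.53 for Mcpt4, -0.25 to 0.25 for Cma1, -0.28 to 0.18 for Tpsb2, -0.09 to 0.03 for Ms4a2, -0.37 to 0.37 for Mrgprb1, -0.26 to 0.11 for Mrgprb2, -0.09 to 0.13 for Hpgds, -0.11 to 0.03 for Cd200r3 and -0.06 to 0.13 for Mitf. Without the 5 arrays Mcpt2 was 0.30, Tpsb2 0.18 and Mrgprb2 0.11. With array weights Cma1 was -0.06, Mrgprb1 -0.02 and Hpgds 0.03. After the second quantile normalization Mrgprb1 was -0.01 and Hpgds 0.02. Centred, Tpsb2 was 0.02, Mrgprb2 0.01 and Hpgds 0.03, and with covariates Tpsb2 was 0.01. The cause of these shifts was not tested beyond the smaller number of arrays. A group of 3 arrays limits all of these counts, and dim probe sets, under the lower quartile of an array, understate differences.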
